A study of Canis lupus familiaris with 8 samples.

Results

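Beta-actin (ACTB), gamma-actin (ACTG1) and the heavy chain of nonmuscle myosin IIA (MYH9) were followed on 8 Cy3-labelled, 1-colour Agilent arrays of canine total RNA. Every gene probe whose RefSeq accession names 1 of these genes was taken, which gave 9 probes of 43603 gene probes in all. ACTB (NM_001195845, gene 403580), ACTG1 (NM_001003349, gene 475923) and MYH9 (NM_001110767, gene 481280) had 3 probes each. These 3 of 1458 named genes were chosen by their processed signal across these same arrays, where probes of ACTB go different ways, so their values are a description and carry no test.

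The arrays fell into 4 groups of 2, named Star CSC, Star parent, Stylo CSC and Stylo parent. CMT-Stylo is a canine mammary carcinoma cell line, and CMT-Star is a single subline of it, made resistant by months in rising doxorubicin, up to 100 nM. A parent group is the unsorted culture, and a CSC group holds cells of that culture sorted as CD44+, CD24-/low and ALDH+, which the labels call cancer stem cells. Both Star groups are labelled doxorubicin treated and both Stylo groups non treated, and all 4 grew in the same medium with serum. No label says that the 2 arrays of a group came from separate cultures, so the spread between them may be technical, and n = 2 arrays per group limits every value.

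Cytoplasmic actins polymerise into the filaments that shape the cell cortex, stress fibres and junctions, and nonmuscle myosin II is the motor that pulls these filaments past each other. Phosphorylation of its light chains switches the motor on, and serum response factor drives transcription of actin genes. In mammary tumour cells this machinery carries adhesion, division and invasion, and ACTB is also a common reference gene. ACTB and ACTG1 share most of their coding sequence, and which of both transcripts an actin probe reads was not tested, so each actin value is uncertain as to gene.

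Levels below are log2 of a probe's processed signal less the 75th percentile of its array, so that 0 is that percentile. The 75th percentile of signal was 464 to 536 on Star CSC, 331 to 371 on Star parent and 296 to 310 on Stylo CSC arrays, and 88.3 and 69.2 on Stylo parent arrays. The share of probes well above background was 55.5% to 60.6% on the 6 brighter arrays and 46.7% to 47.4% on Stylo parent arrays. Star arrays lay on slide 2 and Stylo arrays on slide 1, so line and slide cannot be told apart, while each sorted group shares a slide with its own parent. Replicate arrays correlated at 0.982 to 0.996 across tested probes. All 9 actin and myosin probes were well above background on all 8 arrays, with no flagged or saturated spot.

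MYH9 had its lowest mean level in unsorted Stylo cells. Its probe A_11_P050161 was 9.48-fold higher in Star parent and 8.85-fold higher in Stylo CSC than in Stylo parent. The other 2 probes were 3.37-fold to 6.73-fold higher in these groups. At MYH9 probe A_11_P089551 Star CSC overlapped Stylo parent, with a log2 difference of 0.070, and of -0.020 with cyclic loess. Star CSC had a lower mean than Stylo parent at all 6 actin probes, but at ACTB probe A_11_P052831 and ACTG1 probe A_11_P0000038763 their arrays overlapped and Star CSC was the higher under the 6 other normalizations tried. Star CSC was also the higher at ACTB probe A_11_P199968 under 4 of 7 normalizations. At ACTB probe A_11_P194048 and ACTG1 probe A_11_P129201 it was the higher under 1 of 7. ACTG1 probe A_11_P052376 alone was lower in Star CSC under all 7. With this scaling all 9 probes were lower in Star CSC than in Star parent and than in Stylo CSC, although with spike-in scaling 5 were higher than in Star parent. Against Stylo parent the actin probes split, with 1 ACTB and 1 ACTG1 probe higher in Star parent and 2 of each lower, of which 3 turned higher under another normalization. Less RNA per cell and fewer cells that express a gene cannot be told apart in these bulk samples.

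**Figure D1:**
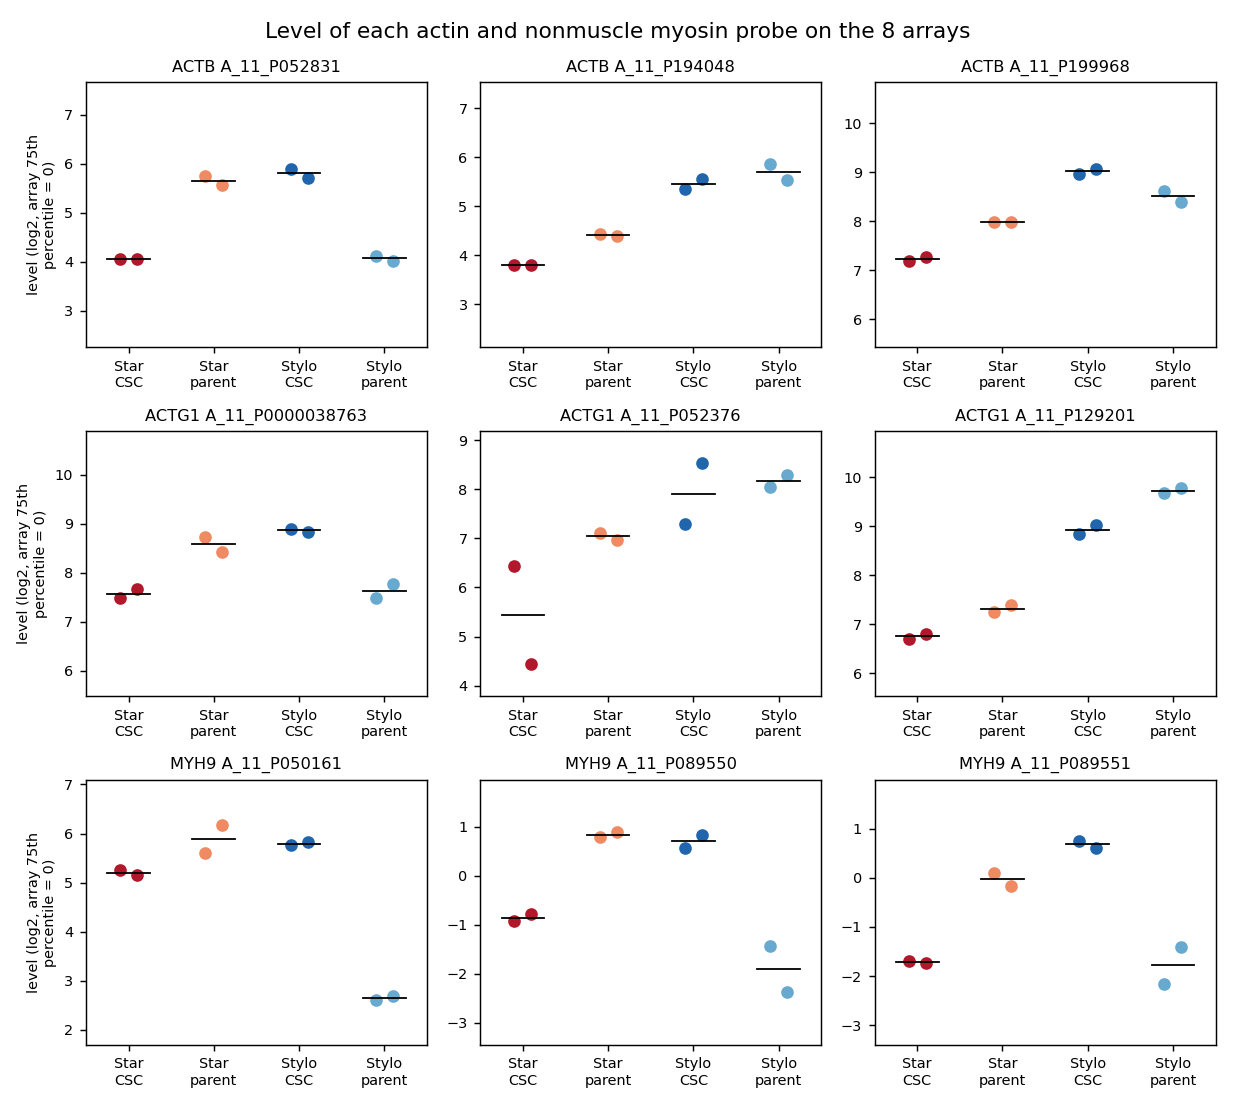
Level of each probe (y axis, log2, array 75th percentile = 0) in Star CSC, Star parent, Stylo CSC and Stylo parent. Points are arrays and bars are means of 2, every panel spans the same number of log2 units, the MYH9 panels show Stylo parent at the bottom, overlapped by Star CSC at A_11_P089551, and the actin panels differ from probe to probe.

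ACTB probe A_11_P052831 had levels of 4.06 and 4.05 in Star CSC, 5.74 and 5.56 in Star parent, 5.90 and 5.71 in Stylo CSC, and 4.11 and 4.02 in Stylo parent. Star CSC overlapped Stylo parent at the bottom, Star parent overlapped Stylo CSC at the top, and the gap between these pairs was far wider than the spread between replicates. The level was 1.59 ± 0.12 (SE) higher in Star parent and 1.73 ± 0.12 higher in Stylo CSC than in Stylo parent, each on the log2 scale. It was 1.60 lower in Star CSC than in Star parent (log2 difference -1.60 ± 0.12) and 1.75 lower than in Stylo CSC (-1.75 ± 0.12).

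ACTB probe A_11_P194048 had levels of 3.80 and 3.80 in Star CSC, 4.44 and 4.39 in Star parent, 5.35 and 5.55 in Stylo CSC, and 5.85 and 5.54 in Stylo parent. Here the order ran by line: both Star groups lay below both Stylo groups, and the 2 Stylo groups overlapped. The log2 difference was -1.28 ± 0.14 (SE) in Star parent and -0.25 ± 0.14 in Stylo CSC against Stylo parent. The second of these lies within the overlap of the arrays.

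ACTB probe A_11_P199968 had levels of 7.20 and 7.28 in Star CSC, 7.99 and 7.99 in Star parent, 8.96 and 9.07 in Stylo CSC, and 8.62 and 8.40 in Stylo parent. No 2 groups overlapped, and Stylo CSC was highest. The log2 difference from Stylo parent was -0.52 ± 0.11 (SE) in Star parent and 0.51 ± 0.11 in Stylo CSC. The direction of the first changed with the scaling, as given further on.

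ACTG1 probe A_11_P0000038763 had levels of 7.48 and 7.66 in Star CSC, 8.73 and 8.43 in Star parent, 8.90 and 8.83 in Stylo CSC, and 7.48 and 7.77 in Stylo parent. It took the same order of groups as ACTB probe A_11_P052831, with Star CSC and Stylo parent overlapping at the bottom. Against Stylo parent it was 0.96 ± 0.16 (SE) higher in Star parent and 1.24 ± 0.16 higher in Stylo CSC on the log2 scale. Star CSC was 2.02-fold below Star parent and 2.45-fold below Stylo CSC.

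ACTG1 probe A_11_P129201 had levels of 6.71 and 6.80 in Star CSC, 7.26 and 7.39 in Star parent, 8.85 and 9.02 in Stylo CSC, and 9.68 and 9.77 in Stylo parent. No groups overlapped, and Stylo parent was highest. Star parent lay 5.31-fold below Stylo parent (log2 -2.41 ± 0.11 SE) and Stylo CSC 1.73-fold below it (-0.79 ± 0.11). Before scaling, the mean processed signal of this probe was 0.840 times as high in Star parent as in Stylo parent, while that of the other 8 probes was 1.80 to 42.7 times as high.

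ACTG1 probe A_11_P052376 had levels of 6.43 and 4.44 in Star CSC, 7.11 and 6.98 in Star parent, 7.29 and 8.53 in Stylo CSC, and 8.05 and 8.30 in Stylo parent. Its replicates lay far apart in both sorted groups, with an SD of 1.41 in Star CSC and 0.88 in Stylo CSC, so its differences carried an SE of 0.69. On the second Star CSC array the recorded width of the spot was 43.6 in the software's units, against 54.1 to 56.7 on the others. The median pixel of this spot was 0.370 of the processed signal, against 0.624 to 0.805. The software had not flagged it, and its part in the low value was not tested. Without the first Star CSC array the log2 difference of Star CSC from Star parent was -2.60, and without the second it was -0.61.

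MYH9 probe A_11_P050161 had levels of 5.25 and 5.15 in Star CSC, 5.61 and 6.17 in Star parent, 5.76 and 5.82 in Stylo CSC, and 2.61 and 2.68 in Stylo parent. Stylo parent stood apart from the other 6 arrays, and Star parent overlapped Stylo CSC. The log2 difference from Stylo parent was 3.24 ± 0.19 (SE) in Star parent and 3.15 ± 0.19 in Stylo CSC. The other groups differed far less, with -0.69 ± 0.19 in Star CSC against Star parent and -0.59 ± 0.19 against Stylo CSC.

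This probe is printed on 5 spots per array, which allows its error within an array to be seen. The 5 processed signals ran from 11681 to 20332 on the second Star CSC array and from 7002 to 27417 on the first Star parent array. They ran from 510 to 575 and from 410 to 463 on the Stylo parent arrays, so no spot of any other array came near them. Of the 40 spots, 3 lay under 75% of their array's median, 2 on the second Star CSC and 1 on the first Star parent array, and the other 37 lay within 0.904 to 1.25 times the median. The coefficient of variation over the 5 spots was 24.8% and 38.4% on those arrays and 4.02% to 10.6% on the other 6.

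**Figure D2:**
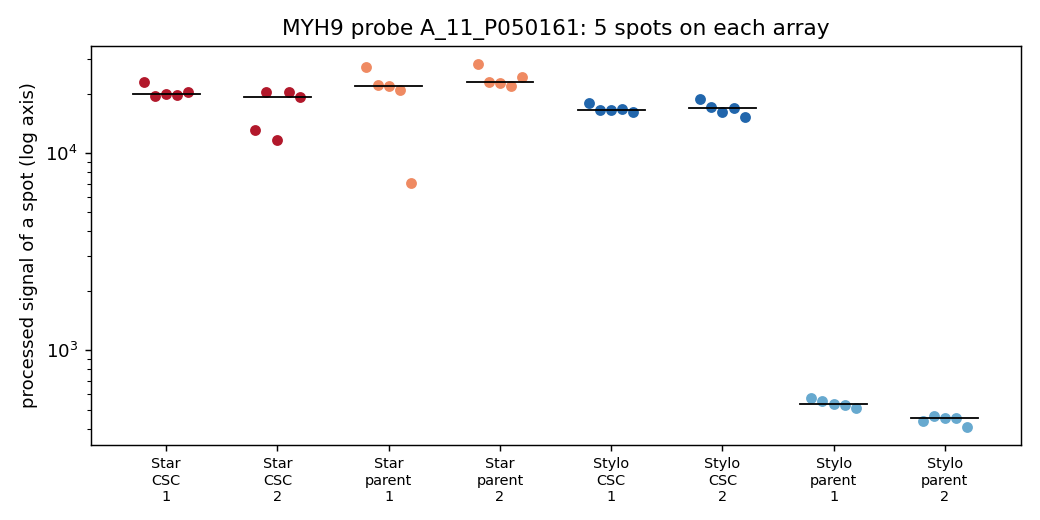
Processed signal (y axis, log scale) of the 5 spots of MYH9 probe A_11_P050161 on each array (x axis, Star CSC to Stylo parent). Points are spots and bars are the array's median. The Stylo parent spots lie between 410 and 575, and the lowest spot elsewhere is 7002.

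MYH9 probe A_11_P089550 had levels of -0.92 and -0.79 in Star CSC, 0.79 and 0.88 in Star parent, 0.57 and 0.84 in Stylo CSC, and -1.44 and -2.38 in Stylo parent. It kept the order of A_11_P050161, with Stylo parent lowest and Star parent overlapping Stylo CSC. The Stylo parent signals were low, at 32.5 and 13.3, though brighter than 65.2% and 57.7% of the probes on those arrays. The log2 difference from Stylo parent was 2.75 ± 0.30 (SE) in Star parent and 2.61 ± 0.30 in Stylo CSC. Star CSC lay 3.23-fold below Star parent, a wider gap than the 1.61-fold of A_11_P050161.

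MYH9 probe A_11_P089551 had levels of -1.70 and -1.73 in Star CSC, 0.11 and -0.16 in Star parent, 0.76 and 0.61 in Stylo CSC, and -2.16 and -1.40 in Stylo parent. Its Stylo parent signals were also low, at 19.7 and 26.1. Unlike at the other 2 probes, Star CSC here overlapped Stylo parent. Star parent was 1.75 ± 0.25 (SE) and Stylo CSC 2.47 ± 0.25 above Stylo parent on the log2 scale. The log2 difference of Star CSC was -1.68 ± 0.25 from Star parent and -2.40 ± 0.25 from Stylo CSC.

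The first comparison, Star parent against Stylo parent, set the resistant subline against the line it came from. The groups did not overlap for any of the 9 probes, with 5 higher and 4 lower in Star parent, where 39.4% and 47.8% of all 26826 tested probes were apart in these directions and 87.1% in either. The median log2 difference was 0.96 over the 9 probes and -0.20 over all tested probes. By the call used for other genes, a limma adjusted p under 0.05 with at least a 2-fold change, 56.5% of tested probes differed, 24.6% higher and 31.9% lower. A share this high in the background leaves little to read from the members' count, and the values by probe carry the description.

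Stylo CSC against Stylo parent asked what the sort selects in the sensitive line. Of the 9 probes, 6 were higher, 1 was lower and 2 overlapped, where 38.4% of tested probes were apart and higher and 50.5% apart and lower, 88.9% in either direction. The median log2 difference was 1.24 over the 9 probes and -0.28 over all tested probes. Across all tested probes 54% were called, 21.9% higher and 32.1% lower. Both this comparison and the first use the same 2 Stylo parent arrays, so their likeness across probes is not independent.

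Star CSC against Star parent asked the same of the resistant line. All 9 probes were lower in Star CSC with no overlap, where 41.8% of tested probes were apart and lower, 29.8% apart and higher and 71.6% either. Their log2 differences ran from -1.69 to -0.57, with a median of -1.01 against -0.10 over all tested probes. Far fewer probes were called over the whole array here, 9.73%, of which 6.51% were lower and 3.22% higher. With spike-in scaling 5 of the 9 probes were higher in Star CSC, a setting that raised the median of all tested probes to 1.27.

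Star CSC against Stylo CSC compared the sorted cells of both lines. All 9 probes were again lower in Star CSC with no overlap, where 47.1% of tested probes were apart and lower, 38.8% apart and higher and 85.9% either. The log2 differences ran from -2.48 to -0.59, with a median of -1.75 against -0.10 over all tested probes. Of all tested probes 29.4% were called, 16.9% lower and 12.6% higher. The 3 ACTB probes lay within 0.13 of each other here, at -1.75, -1.65 and -1.78, but within 0.45 with cyclic loess, 1.25 with quantile normalization and 1.45 with normexp. The limit of -2.48 is that of ACTG1 probe A_11_P052376, which was -3.47 without the first Star CSC array and -1.48 without the second. With quantile normalization ACTG1 probe A_11_P0000038763 turned to 0.31.

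**Figure D3:**
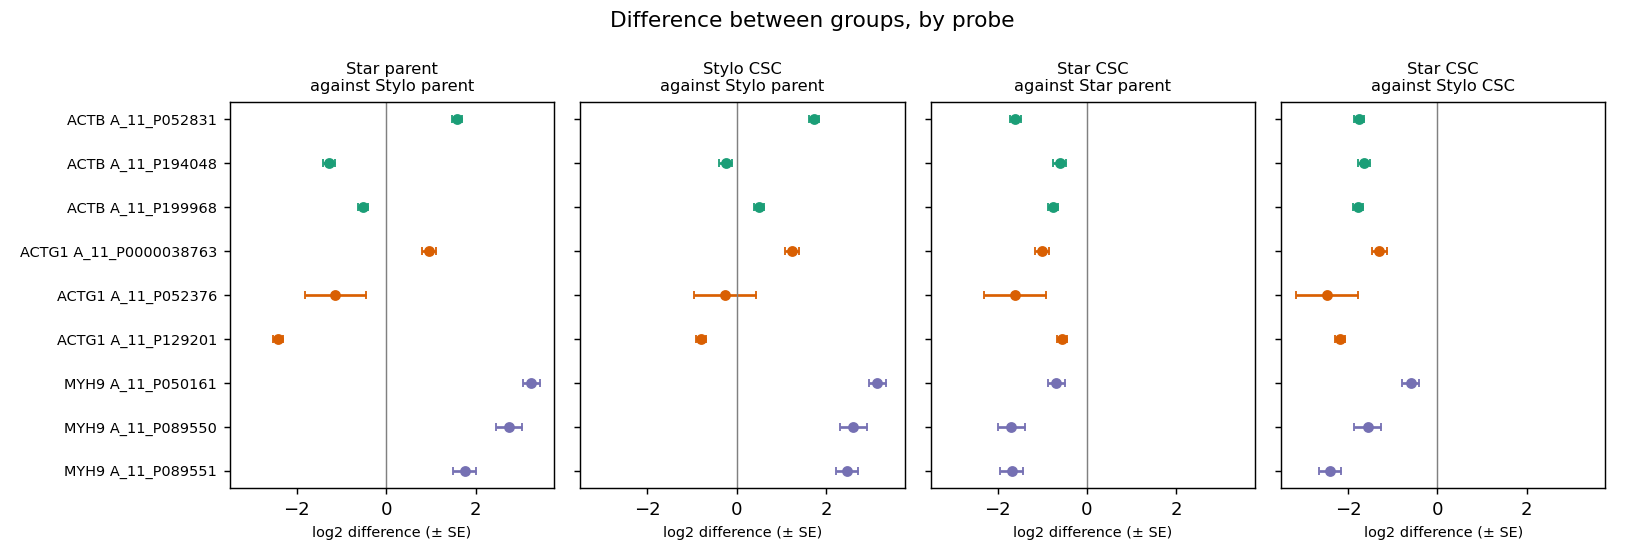
Log2 difference (x axis, ± SE from the limma fit) of each probe (y axis) for Star parent against Stylo parent, Stylo CSC against Stylo parent, Star CSC against Star parent and Star CSC against Stylo CSC. Green points are ACTB, orange ACTG1 and purple MYH9 probes, all with 75th-percentile scaling, where in the 2 right-hand panels all 9 probes lie below 0, and in the 2 left-hand panels the actin probes lie on both sides while MYH9 lies above 0.

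The shift that went with the sort was set side by side in both lines, with no test. The change in Star (Star CSC minus Star parent) less the change in Stylo (Stylo CSC minus Stylo parent) was -3.84 ± 0.27 (SE), -4.31 ± 0.42 and -4.15 ± 0.36 for the 3 MYH9 probes on the log2 scale. It was -3.33 ± 0.16, -0.37 ± 0.19 and -1.26 ± 0.16 for the ACTB probes, and -2.25 ± 0.22, -1.34 ± 0.98 and 0.23 ± 0.16 for the ACTG1 probes, in the order of description for ACTB and as A_11_P0000038763, A_11_P052376 and A_11_P129201 for ACTG1. Leaving out 1 array moved that of A_11_P052376 between -2.34 and -0.35. MYH9 values lay close together, and actin values ranged from strongly negative to near 0. The fit called 52.2% of all tested probes for this difference, 28.2% higher and 24% lower.

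How far probes of a gene differ from each other does not depend on a constant per array, so it can be set beside that of other genes, as a description, since the ACTB probes were picked for disagreeing. For Star parent against Stylo parent the log2 differences spanned 3.37 over the ACTG1 probes, 2.87 over the ACTB probes and 1.49 over the MYH9 probes. Among 131 named genes with at least 3 tested probes the median span was 1.35, and ACTG1 stood 15th, ACTB 23rd and MYH9 58th from the widest. Of the 403 genes with at least 2 tested probes, ACTB was among 16 (3.97%) with 1 probe at least 2-fold higher and another at least 2-fold lower.

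For Stylo CSC against Stylo parent the spans were 2.03 for ACTG1, 1.98 for ACTB and 0.68 for MYH9, where the median of the 131 genes was 0.74 and MYH9 stood 70th. Star CSC against Star parent gave 1.04, 0.99 and 1.00 for the same genes, against a median of 0.62. For Star CSC against Stylo CSC ACTB spanned 0.13, 125th of 131 genes, while MYH9 spanned 1.81 and the median gene 1.36. That narrow ACTB span belongs to scalings by a constant per array, as the wider values under the other normalizations show. Under quantile normalization, cyclic loess and normexp, which do change the span, ACTB spanned 2.65 to 3.03 and ACTG1 2.39 to 3.36 for Star parent against Stylo parent.

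The direction of several actin probes against Stylo parent depended on the scaling. MYH9 was higher at all 3 probes in both comparisons with Stylo parent under each of 7 normalizations, with A_11_P050161 at 3.24 to 4.40 for Star parent and 3.15 to 5.18 for Stylo CSC. ACTB probe A_11_P052831 and ACTG1 probe A_11_P0000038763 were likewise higher in both under all 7. ACTB probe A_11_P194048 was lower in Star parent than in Stylo parent under all 7, from -1.28 to -0.12.

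The other actin probes turned. For Star parent against Stylo parent ACTB probe A_11_P199968 ran from -0.52 to 1.81, higher under 4 normalizations and lower under 3. ACTG1 probe A_11_P052376 ran from -1.13 to 0.76, also higher under 4, and A_11_P129201 from -2.41 to 0.16, higher under 1. For Stylo CSC against Stylo parent ACTB probe A_11_P194048 and ACTG1 probe A_11_P052376 were each higher under 5 of 7, and ACTG1 probe A_11_P129201 under 4. No single direction can be given for these probes against Stylo parent.

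**Figure D4:**
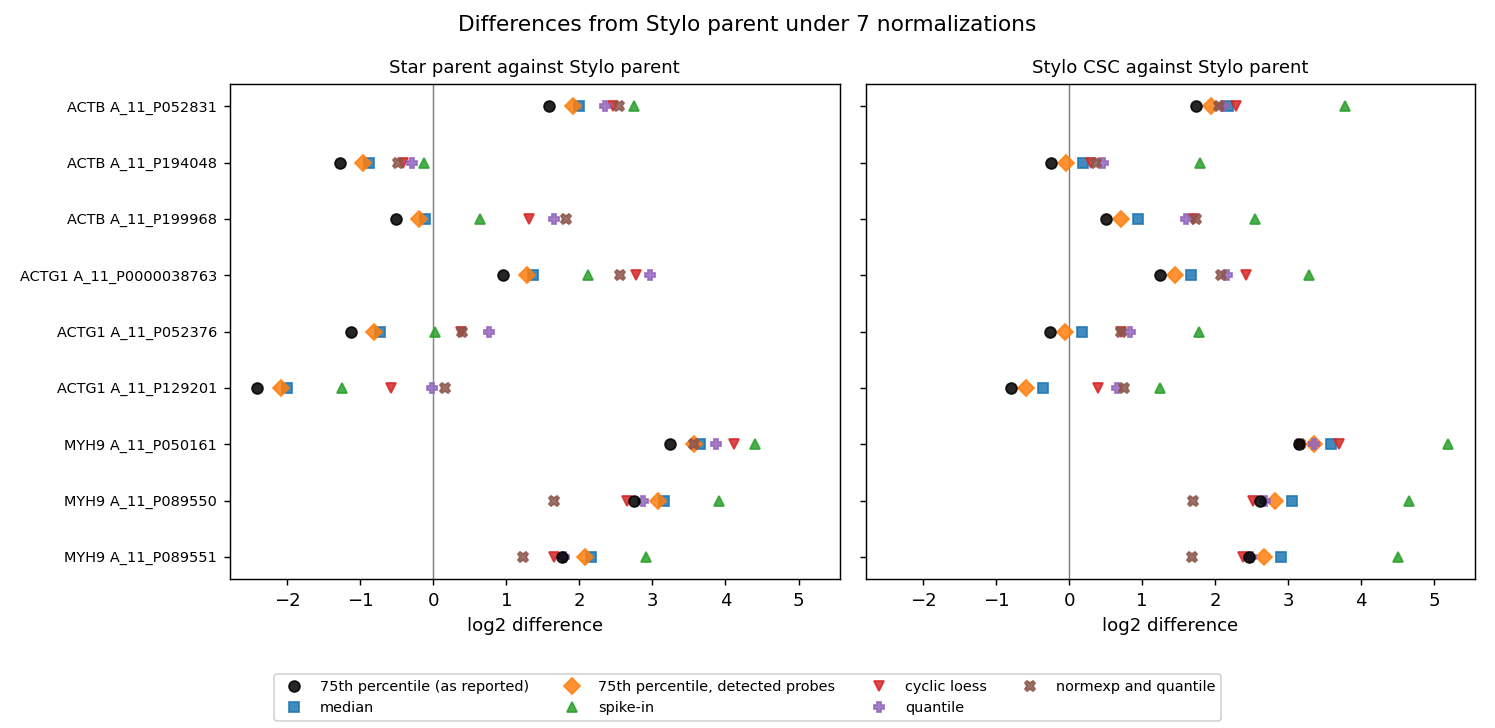
Log2 difference (x axis) of each probe (y axis) for Star parent and for Stylo CSC, both against Stylo parent, under 7 normalizations marked by symbol. Black circles are the values as reported, the MYH9 symbols all lie right of 0, and those of ACTG1 probe A_11_P129201 cross it.

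Other genes of the actin machinery were read from lists by role, with 1 tested probe, the brightest on average, standing for each gene. Of 174 listed genes, 22 had a named probe, all tested. In Star parent against Stylo parent 11 of 22 (50%) were called, 3 higher and 8 lower, beside 56.5% of all tested probes, with a median log2 difference of -0.88. With quantile normalization the same comparison gave 6 higher and 5 lower, and with spike-in scaling 9 higher and 4 lower. For every called gene named here, both arrays of a group lay on 1 side of both arrays of the other. The calls kept under all 7 normalizations and without any 1 array were those of CAPZA2 and DAG1 in Star parent, of DAG1, DMD, EZR and VASP in Stylo CSC, and of TPM3 and CTNNB1 in Star CSC against Stylo CSC. Each other call between 2 groups named here from these lists was lost under at least 1 of these.

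In Stylo CSC against Stylo parent 11 of 22 were called, 6 higher and 5 lower, beside 54% of all tested probes. Quantile normalization gave 9 higher and 2 lower, and spike-in scaling 18 higher and 0 lower. In Star CSC against Star parent 1 of 22 was called, beside 9.73%, and in Star CSC against Stylo CSC 9 of 22, 1 higher and 8 lower, beside 29.4%. The called share was 4.55% and 40.9% in these last comparisons, with median log2 differences of -0.36 and -0.62 over the 22 genes.

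Among monomer-binding, severing and capping proteins, 2 of 22 listed genes were tested. CAPZA2, the alpha subunit that caps the fast-growing filament end, fell in Star parent (-2.52 ± 0.09 SE, limma adjusted p = 5.61e-06) and in Stylo CSC (-2.55 ± 0.09, adjusted p = 1.21e-05), both against Stylo parent, and all 3 of its probes were lower. WDR1, which helps cofilin take filaments apart, fell in Star CSC against Stylo CSC (-3.03 ± 0.93, adjusted p = 0.0332), a call lost with quantile normalization and cyclic loess and without any 1 of the 6 arrays outside Star CSC. No probe was named for profilin, cofilin or the thymosins.

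Crosslinking and bundling proteins had 3 tested genes of 28. UTRN, which ties actin to dystroglycan, rose in Star parent (1.63 ± 0.14, limma adjusted p = 9.35e-05) and in Stylo CSC (1.36 ± 0.14, adjusted p = 0.000237) against Stylo parent. DMD, its muscle relative, rose in Stylo CSC (1.17 ± 0.10, adjusted p = 0.000109), although its 6 tested probes ran from -2.57 to 1.84 there. The tropomyosin TPM3, which coats filaments, fell in Star parent (-1.14 ± 0.13, adjusted p = 0.00041) at its brighter probe, with 0.59 at its other probe and 0.021 under spike-in scaling, and in Star CSC against Stylo CSC (-2.04 ± 0.13, adjusted p = 0.000137).

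Membrane and adhesion anchoring had 8 tested genes of 27, with 1 higher and 2 lower in Star parent and 3 higher and 3 lower in Stylo CSC, each against Stylo parent. Of all tested probes, 56.5% and 54% were called in these comparisons. DAG1, the dystroglycan core, stayed near background in Stylo parent and was at least 15.1-fold higher in Star parent and at least 5.76-fold higher in Stylo CSC. S100A4, a calcium-binding partner of nonmuscle myosin IIA, fell in Star parent (-3.12 ± 0.11, limma adjusted p = 5.74e-06), but gave -0.39 with quantile normalization and -0.28 with normexp. In Stylo CSC it fell as well (-1.96 ± 0.11, adjusted p = 2.79e-05), but gave -0.24 and -0.15 with these and 0.075 with spike-in scaling. ANXA1, a membrane-binding annexin, fell in both as well (-2.64 ± 0.09 and -2.55 ± 0.09). With quantile normalization and normexp ANXA1 gave -0.11 and -0.012 in Star parent, and -0.92 and -0.91 in Stylo CSC.

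In the same group EZR, which links filaments to the membrane, rose in Stylo CSC against Stylo parent (1.18 ± 0.27, limma adjusted p = 0.00814), and so did VASP, which promotes filament growth (2.14-fold, adjusted p = 0.00535). ITGB3, the integrin beta chain, was the gene called in Star CSC against Star parent (-1.28 ± 0.22, adjusted p = 0.0103, but 0.10 with spike-in scaling and not called without the second Star CSC array). CTNNB1, beta-catenin, which joins cadherins to actin, fell in Star CSC against Stylo CSC (-2.02 ± 0.21, adjusted p = 0.00116), in a fit that left out its flagged spot on the second Star parent array. Of its 4 probes, 1 other fell there, at -1.48, and the remaining probes gave 0.22 and -0.46.

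The serum response factor list had 1 tested gene of 18. FOSB, an immediate early gene, fell in Star parent against Stylo parent (-1.69 ± 0.18, limma adjusted p = 0.000239) and in Star CSC against Stylo CSC (-2.36 ± 0.18, adjusted p = 0.000206). ACTR1A, the actin-related protein of dynactin and the tested gene of 14 other actins and actin-related proteins, gave 0.54 ± 0.16 in Star parent and 0.58 ± 0.16 in Stylo CSC against Stylo parent, under the 2-fold threshold. No probe was named for the nucleation and branching list or for other myosins outside striated muscle.

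Other filament systems gave few tested genes. VIM, the mesenchymal intermediate filament protein, fell in Star parent against Stylo parent (-1.33 ± 0.11, limma adjusted p = 9.42e-05) but gave 0.98, 0.62 and 0.74 with quantile, cyclic loess and normexp normalization, so its direction is not settled. The basal keratin KRT14 fell in Star parent (3.99-fold lower, adjusted p = 0.000112, but -0.84 on the log2 scale and not called with spike-in scaling), and KRT19, a luminal keratin, rose in Star CSC against Star parent (2.34 ± 0.48, adjusted p = 0.0174; not called without either Star CSC array or the first Star parent array, or with normexp). Of the 4 tested intermediate filament genes, 2 fell in Star parent and 1 in Stylo CSC against Stylo parent, beside 31.9% and 32.1% of all tested probes. The fall in Stylo CSC was that of KRT19, which was not well above background in either Stylo group. It was not called with quantile normalization (-0.83), cyclic loess (-0.97), spike-in scaling (0.084) or normexp (-0.055). The tubulin TUBG1, the tested one of 14, gave 0.36 ± 0.48 and 0.28 ± 0.48 in these comparisons and was not called in any.

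Probes for sarcomeric myosin heavy chains, motors that belong to striated muscle, were read beside MYH9. They cannot check the MYH9 label, since no probe was named for other myosins outside striated muscle. None of 28 probes for MYH1, MYH2, MYH3, MYH4, MYH7 and MYH8 passed the background test on both arrays of a group, and 2 passed it on at least 1 array. Of 26 sarcomere genes 4 were tested, with 1 lower in Star parent and 2 lower in Stylo CSC against Stylo parent. Of all tested probes, 31.9% and 32.1% were called lower there. CKM, muscle creatine kinase, fell in both (-3.12 ± 0.25 and -3.08 ± 0.25, limma adjusted p = 7.12e-05 and 9.06e-05). TNNI3, cardiac troponin I, rose in Star CSC against Stylo CSC (1.63 ± 0.10, adjusted p = 0.000122). There 1 of the 4 was called higher and 2 lower, beside 12.6% and 16.9% of all tested probes. Against Star parent 2 were called lower in Star CSC, beside 6.51%. MYL2 fell in Star CSC against Star parent (log2 -1.70) and Stylo CSC (-1.53). Both calls were lost with quantile normalization, spike-in scaling and normexp, the last at -0.12 and -0.091.

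ACTB is often taken as a constant reference, so other reference genes were read the same way. GAPDH, a glycolytic enzyme, was called higher at 6 of 7 probes in Star parent (0.85 to 2.03) and at all 7 in Stylo CSC (1.61 to 1.91), both against Stylo parent. In Star parent its brightest probe was under 2-fold without the second Stylo parent array (0.90) or the second Star parent array (0.95). HPRT1, of purine salvage, fell at both probes in Star parent (-2.13 and -1.82) and in Stylo CSC (-2.64 and -2.57), calls that its brighter probe lost with spike-in scaling (-0.97 and -0.53). RPL13A, a ribosomal protein, fell at both probes in each (-2.97 and -2.48 in Star parent, -2.28 and -1.79 in Stylo CSC), but its brighter probe was no longer called in Star parent with quantile normalization (-0.42) and normexp (-0.43), nor in Stylo CSC with these (-0.17 each), cyclic loess (-0.63) and spike-in scaling (0.25).

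EEF1A1, a translation factor, fell at 3 of 4 probes in Star parent, over a range of -4.27 to -0.39, a wider span than at either actin. GUSB, a lysosomal enzyme, rose in both, by 1.82 ± 0.39 and 2.22 ± 0.39 (limma adjusted p = 0.0056 and 0.00246), the first of them not called with normexp (0.82). TFRC, the transferrin receptor, gave -0.66 ± 0.13 and -0.64 ± 0.13 and was under 2-fold. Of the 6 tested reference genes, by their brightest probe, 2 rose, 2 fell and 2 were not called in each of these comparisons. Of all tested probes, 56.5% were called in Star parent and 54% in Stylo CSC, so little can be read from this count. In Star CSC against Star parent none of the 6 was called by its brightest probe, beside 9.73% of all tested probes, and 1 dimmer GAPDH probe was called lower.

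**Figure D5:**
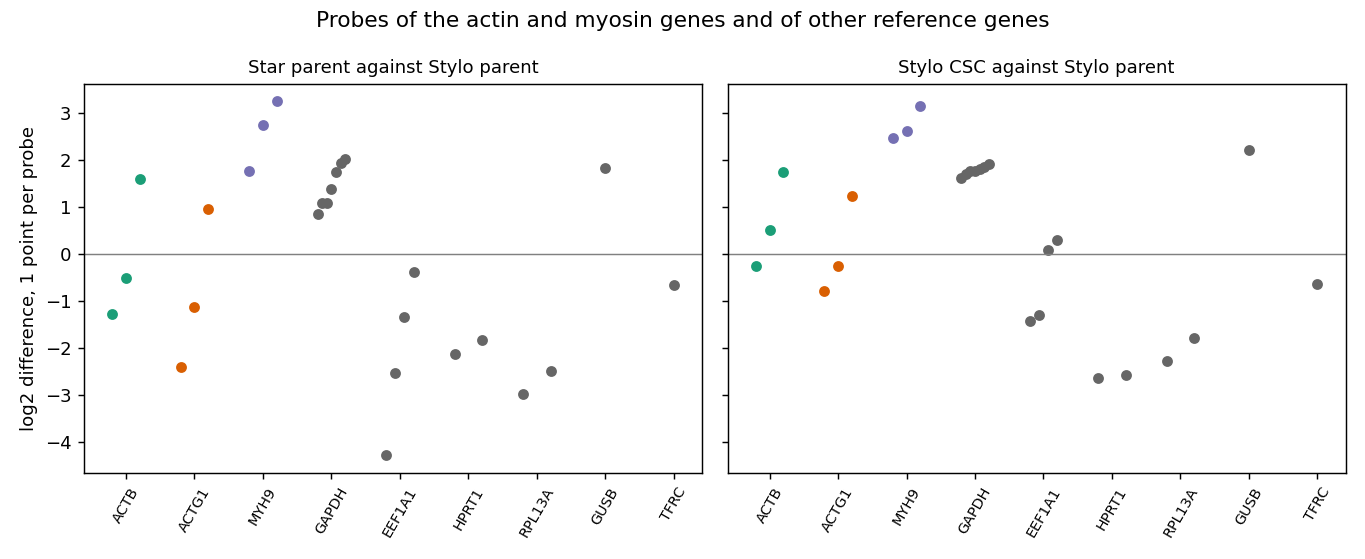
Log2 difference (y axis) of every tested probe of ACTB, ACTG1, MYH9 and 6 other genes often used as references (x axis), for Star parent and for Stylo CSC, both against Stylo parent. Points are probes with 75th-percentile scaling, where GAPDH and GUSB lie above 0, HPRT1, RPL13A and TFRC lie below it, and ACTB, ACTG1 and EEF1A1 have points on both sides in the right-hand panel.

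Markers of other cell types were read for these cultures, and their part in the actin and myosin values was not tested. Of 10 epithelial markers 5 had a probe, and those well above background on both arrays were CDH1, KRT14, KRT19 and OCLN in Star CSC, CDH1 and KRT14 in Star parent, CDH1, CLDN3 and KRT14 in Stylo CSC, and CLDN3 and KRT14 in Stylo parent. The summed epithelial signal, relative to the array's 75th percentile, was 1.07 to 1.17 in Star CSC, 1.05 to 1.24 in Star parent, 2.93 to 3.18 in Stylo CSC and 4.45 to 5.63 in Stylo parent. CDH1, E-cadherin, rose in Star parent (1.31 ± 0.15, limma adjusted p = 0.000348, but 0.20 and not called with normexp) and CLDN3, a tight-junction claudin, fell (-4.27 ± 0.21, adjusted p = 1.18e-05) against Stylo parent. CDH1 was not well above background on both Stylo parent arrays, nor CLDN3 on both Star parent arrays, so neither size is exact. Against Stylo CSC, where it was not well above background, KRT19 rose at least 4.05-fold in Star CSC. Of the 5 epithelial genes tested, 1 was higher and 3 were lower in each comparison with Stylo parent. Of all tested probes, 56.5% were called in Star parent and 54% in Stylo CSC. OCLN was among the lower in both, and KRT19 in Stylo CSC. The detected genes given above include neither for the groups compared, so these falls have no fold. The OCLN fall in Star parent (log2 -1.12) was lost under every other normalization. In Stylo CSC that of OCLN (-2.45) was lost with spike-in scaling and normexp. That of KRT19 (-1.95) was lost with these, quantile normalization and cyclic loess. In Star CSC, 1 gene was higher against Star parent, and 2 were higher and 3 lower against Stylo CSC, beside 9.73% and 29.4% of all tested probes called.

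Of 10 smooth muscle and myofibroblast markers, the cells that carry the smooth muscle actins, DES alone had a named probe. Its summed signal stayed at 0.0103 to 0.0458 of the 75th percentile in all groups, and Star parent was the group with both arrays well above background, where Star CSC was at least 2.69-fold lower, a call lost with quantile normalization, spike-in scaling and normexp and without the first Star CSC array or either Star parent array. Leukocyte markers had 2 probed genes of 10, CD79A and TYROBP, with a summed signal of 0.0642 to 0.0729 in Star CSC, 0.0400 to 0.0627 in Star parent, 0.0336 to 0.0499 in Stylo CSC and 0.128 to 0.135 in Stylo parent. Endothelial markers had 2 of 6, KDR and VWF, with 0.560 to 0.960 in Star CSC, 1.18 to 1.48 in Star parent, 1.05 to 1.31 in Stylo CSC and 2.25 to 2.72 in Stylo parent. These sums are divided by the 75th percentile, which was lowest on the Stylo parent arrays. Both leukocyte genes were well above background on both arrays in Star CSC, CD79A alone in Star parent and neither in Stylo CSC. VWF was so in all 4 groups and KDR in the Star groups. TYROBP was called higher in Star CSC against Star parent (log2 2.20) and Stylo CSC (1.95), but gave 0.25 and 0.19 with normexp. Neither leukocyte gene was well above background in Stylo parent, so the 2 that were called lower in both comparisons with it have no fold. Of all tested probes, 31.9% and 32.1% were called lower there. The CD79A call was lost in both with cyclic loess, spike-in scaling and normexp, and in Star parent also with median and quantile normalization. The TYROBP call was lost in both with quantile, cyclic loess, spike-in and normexp normalization, under which TYROBP in Stylo CSC was at 0.059 to 0.51. Of the 2 endothelial genes, 1 was called higher in Star parent and 1 lower in Stylo CSC against Stylo parent, beside 24.6% and 32.1% of all tested probes. The rise was that of KDR (log2 1.22), which gave 0.43 with normexp and 0.99 without the first Stylo parent array. The fall was that of VWF (log2 -1.08), which gave -0.65 with median scaling, -0.80 with normexp and 0.96 with spike-in scaling.

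The pattern of each gene's brightest probe was set against 1159 probes of 726 named genes that were well above background on all 8 arrays, by Pearson correlation of levels over the 8 arrays. These values are descriptions, since the arrays form 4 groups and share depth and slide. Each gene is given by its best-correlated probe alone, and other probes of a gene can differ, as those of DMD and CTNNB1 did above. ACTB probe A_11_P199968 was most like CTNNB1 (0.991), the amino acid carrier SLC1A5 (0.985), the G protein subunit GNB1 (0.976), the protease inhibitor TIMP1 (0.976) and the metallothionein MT2A (0.968). ACTG1 probe A_11_P129201 was most like FTL, ferritin light chain (0.996), ZDHHC8 (0.996), RPL37 (0.995), RPSA (0.994) and SELENOH (0.994).

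MYH9 probe A_11_P050161 was most like LMNA, the nuclear lamina protein (0.994), DMD (0.990), the kinase MAP2K2 (0.989), GAPDH (0.988) and the growth factor HGF (0.987). All 5 shared its low Stylo parent arrays. LMNA had levels of 5.67 and 5.70 in Star CSC, 5.83 and 5.91 in Star parent, 5.83 and 5.78 in Stylo CSC, and 4.85 and 4.80 in Stylo parent. HGF had 0.81 and 0.50 in Star CSC, 1.05 and 0.98 in Star parent, 0.98 and 0.93 in Stylo CSC, and -1.04 and -1.15 in Stylo parent. Neither gene's Stylo parent arrays overlapped the others.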

How the data were processed

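Spot intensities came from scanner files of Agilent Feature Extraction (version 11.5.1.1 in the submitters' processing notes), and the processed intensity was used as deposited. The deposited matrix held log2 values, whose scale and 75th-percentile and per-probe median centring were inferred from the scanner files (column medians -0.27 to 1.01).

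Control and flagged spots were left out and spots of a probe averaged as log2. Accessions named 2353 of 43603 gene probes through RefSeq, assembly UU_Cfam_GSD_1.0, used for names only. Testing a probe required signal well above background on both arrays in 1 group or more. Group means were fitted over all 8 arrays with limma 3.58.1 (R 4.3.3), and calls were set at a 2-fold change with p under 0.05 after Benjamini-Hochberg adjustment; the script was tested on simulated data. An "at least" fold sets the brighter mean against the floor of detected signal.

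Named from each list were called genes with the largest rise and fall, but not for every comparison, and every tested other actin and reference gene. ACTB, ACTG1 and MYH9 probes were all shown. Likeness names the 5 genes with the highest correlation, each by its best-correlated probe. EZR, VASP and the list values of DMD were given after they were seen. The genes of 1 list are counted in totals but not reported here. Members and lists were chosen with earlier results of these data known.

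Replicate numbers did not pair the arrays (correlations of deviations -0.07 to 0.07 over 6 pairs). Alternatives were other scalings (median, detected probes, quantile, cyclic loess, spike-in, and normexp with an offset of 50), filters, thresholds, the deposited matrix, the arrays compared alone, a block and each array left out.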

Additional observations from a re-analysis of the deposited data

Results flagged for a closer look

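The sort went with opposite shifts in the 2 lines at 6 of the 9 actin and myosin probes, where both Star CSC arrays lay below both Star parent arrays and both Stylo CSC arrays lay above both Stylo parent arrays. Of tested probes with a value on every array, 30.9% had opposite shifts without overlap and 15.9% had them in this direction. The difference between the shifts was not tested for these probes. On the log2 scale, the shift in Star less the shift in Stylo was -3.84, -4.31 and -4.15 for MYH9 probes A_11_P050161, A_11_P089550 and A_11_P089551. It was -3.33 and -1.26 for ACTB probes A_11_P052831 and A_11_P199968, and -2.25 for ACTG1 probe A_11_P0000038763. Both shifts lie within a slide, but the slides differ between the lines, so line and slide cannot be told apart. The 3 MYH9 values and these ACTB and ACTG1 values were below 0 under all 7 normalizations. With spike-in scaling the shift in Star was itself above 0 at A_11_P199968 (0.62), A_11_P0000038763 (0.36) and A_11_P050161 (0.69), so there the shifts were not opposite.

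Among other genes of the actin machinery the same difference between shifts was called for 11 of 22 (50%), beside 52.2% of all tested probes, by limma's interaction term with Benjamini-Hochberg adjustment. Of those reported here, it was negative for DAG1 (-3.12, adjusted p = 0.000317), UTRN (-1.85, adjusted p = 0.000428), EZR (-1.74, adjusted p = 0.00864), DMD (-1.65, adjusted p = 0.000189) and CTNNB1 (-1.21, adjusted p = 0.0251). It was positive for CAPZA2 (2.74, adjusted p = 4.92e-05), ANXA1 (2.02, adjusted p = 8.4e-05) and S100A4 (1.62, adjusted p = 0.000334). The calls of CAPZA2, DAG1, EZR and DMD were kept under all 7 normalizations and without any 1 array. The S100A4 call ended with quantile normalization (0.46), cyclic loess (0.62), spike-in scaling (0.95) and normexp (0.42). The ANXA1 call ended with quantile normalization (0.83) and normexp (0.96), and that of UTRN with normexp (-0.82). That of CTNNB1 ended with the deposited matrix (-0.38) and without either Stylo CSC array, either Stylo parent array or the first Star CSC array (-1.21 to -0.92), and could not be fitted without the first Star parent array. Groups of 2 arrays are too small to look for 1 array far from the rest.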

How the results depend on the processing

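With 2 arrays per group, precision is limited throughout. Without the fold threshold, the counts of called probes were 7925 (Star CSC against Star parent, 2609 as reported) and 15290 (Star CSC against Stylo CSC, 7899), and actin machinery genes numbered 17, 20 and 6 in the first 3 comparisons (11, 11 and 1). Normexp gave 8124, 6705, 759 and 2671 probes in the 4 comparisons (15169, 14486, 2609 and 7899) and 7409 for the difference between shifts (13990), with 7, 0 and 3 machinery genes for Star parent against Stylo parent, Star CSC against Star parent and Star CSC against Stylo CSC (11, 1 and 9). Spike-in scaling gave 18577 probes and 12 machinery genes for Star CSC against Star parent and 18 for Stylo CSC against Stylo parent, and quantile normalization 5 for Star CSC against Stylo CSC. Without the filter 26734, 28650 and 21988 probes were called for Star parent and Stylo CSC against Stylo parent and the difference between shifts. Requiring detection on all 8 arrays left 1339 and 4557 for Star CSC against Star parent and Stylo CSC. The share of calls that were higher, 43.5%, 40.6%, 33.1%, 42.8% and 54.0% as reported, was 56.9%, 57.2%, 58.7%, 56.2% and 46.5% with median scaling and 78.3%, 97.7%, 98.7%, 72.1% and 28.0% with spike-in scaling. ACTG1 probe A_11_P052376 turned for Star parent against Stylo parent to 0.76 (quantile), 0.37 (cyclic loess), 0.026 (spike-in) and 0.39 (normexp), and A_11_P129201 to 0.16 (normexp). ACTG1 probe A_11_P0000038763 turned to 0.31 for Star CSC against Stylo CSC (quantile) and to 0.36 for Star CSC against Star parent (spike-in). The cause of these shifts was not tested. Leaving out each array gave 14741 to 15236, 13837 to 14576, 2180 to 2992, 7080 to 8048 and 13088 to 13848 probes, and 11 to 13, 10 to 12, 0 to 2, 7 to 10 and 10 to 12 machinery genes. The count for Star CSC against Star parent was 2 without the first Star CSC array and 0 without the second. Of the 45 differences of the actin and myosin probes, 1 changed sign, that of A_11_P052376 for Stylo CSC against Stylo parent (-0.89 to 0.36). With the replicate number as a replicate block 15149, 14461, 2526, 7870 and 13943 probes and 11, 11, 1, 9 and 11 machinery genes were called, and no other value changed its side. Taking the median over a probe's spots, an alternative chosen after seeing the data, moved no difference by more than 0.099. Fitting the compared arrays alone could not be run for the difference between shifts.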
